A study of Bos taurus with 6 samples.

Results

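Superficial zone (SZ) cartilage was set against middle zone (MZ) cartilage of the same animal. The comparison takes every array labelled superficial or mid zone, 4 of the 6 arrays of the series, and pairs them by the replicate number of the labels, which is also the animal. Animal 1 is labelled bov1 and animal 2 bov4, so each zone has n = 2 animals with 1 array each. SZ was the upper 10% of the 50 µm sections that a microtome cut from the joint surface downwards, and MZ the middle 40%. About 200 µm of tissue between both zones was discarded. The other 2 arrays hold the deep zone (DZ) of the same animals, the lower 30% of the sections, and are used here for the estimate of spread and for values set alongside.

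The tissue of both zones was normal articular cartilage from the weight-bearing femoral condyles of untreated cattle aged 14 to 30 months, with no transgene or deletion. Sections of medial and lateral condyles were allotted to zones by depth and not by cell type, and RNA was amplified from 5 ng before labelling. The SZ and MZ arrays carry the same code at the front of their descriptions and the DZ arrays another; what the code stands for is not given in the sources used here. The design asks which genes differ between the zones.

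Articular cartilage is a tissue of chondrocytes in a matrix of type II collagen fibrils and the large proteoglycan aggrecan. Cells near the joint surface are flattened and are known for secreting lubricin, the boundary lubricant encoded by PRG4, while cells of the middle zone are rounder and make a matrix richer in proteoglycan. The zones are also known to differ in signals of the WNT, BMP and TGF-beta families, whose secreted antagonists are made by chondrocytes.

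Values are log2 expression per probeset as deposited. A difference is SZ minus MZ, taken within an animal or averaged over both, with the standard error (SE) of the limma fit. A probeset counts as called where its Benjamini-Hochberg adjusted p was under 0.05. A second count, which is a description with no test, takes features whose difference was over 1, or under -1, in both animals. A gene is represented by the probeset with the highest mean over the 6 arrays. Bulk RNA cannot tell fewer cells of a type from less RNA per cell, and this holds for each difference below.

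The 4 arrays had medians of 4.42 to 4.45, and the lower quartile of the probesets lay at 2.76 and 2.87 on the SZ arrays and at 2.80 and 2.77 on the MZ arrays. Differences of genes that read near these quartiles in one zone are uncertain in size. The highest values were 13.86 and 13.73 in SZ against 14.13 and 14.06 in MZ. COL2A1, ACAN and COMP, which define cartilage, read between 12.12 and 14.13 on all 4 arrays. The Bacillus control probesets, whose RNAs are added from outside, had medians of 5.88 and 6.24 in SZ and 4.90 and 4.17 in MZ, over 27 probesets. Both SZ arrays thus read higher than both MZ arrays in these controls. The Escherichia coli and P1 controls had medians of 11.69 and 11.99 in SZ and 11.81 and 11.18 in MZ, over 18 probesets, with the zones overlapping. The difference between the 3′ and 5′ probesets of a transcript is a sign of RNA length. For GAPDH it was -0.09 and 0.05 in SZ and 0.92 and 0.30 in MZ, lower on both SZ arrays, and for actin -1.16 and -0.93 in SZ and -0.97 and -0.65 in MZ, lower in SZ within each animal. For cyclophilin it was 2.24 and 1.69 in SZ and 2.23 and 2.66 in MZ. The part of these controls in the results was not tested.

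The differences of the 2 animals were alike in part. Across all 24016 probesets the SZ minus MZ difference of animal 1 correlated with that of animal 2 with r = 0.339, as a description over probesets that share arrays. Among the 6004 dimmest probesets r was 0.053, and among the 6004 brightest it was 0.480. The spread of the differences was wider in animal 1, with an SD of 0.678 against 0.531 in animal 2. Animal 1 had 1254 probesets over 1 and 1301 under -1, against 640 each in animal 2. Of the 1254 probesets over 1 in animal 1, 286 were over 1 in animal 2 and 25 were under -1. Of the 1301 under -1 in animal 1, 233 were under -1 in animal 2 and 18 were over 1.

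**Figure D1:**
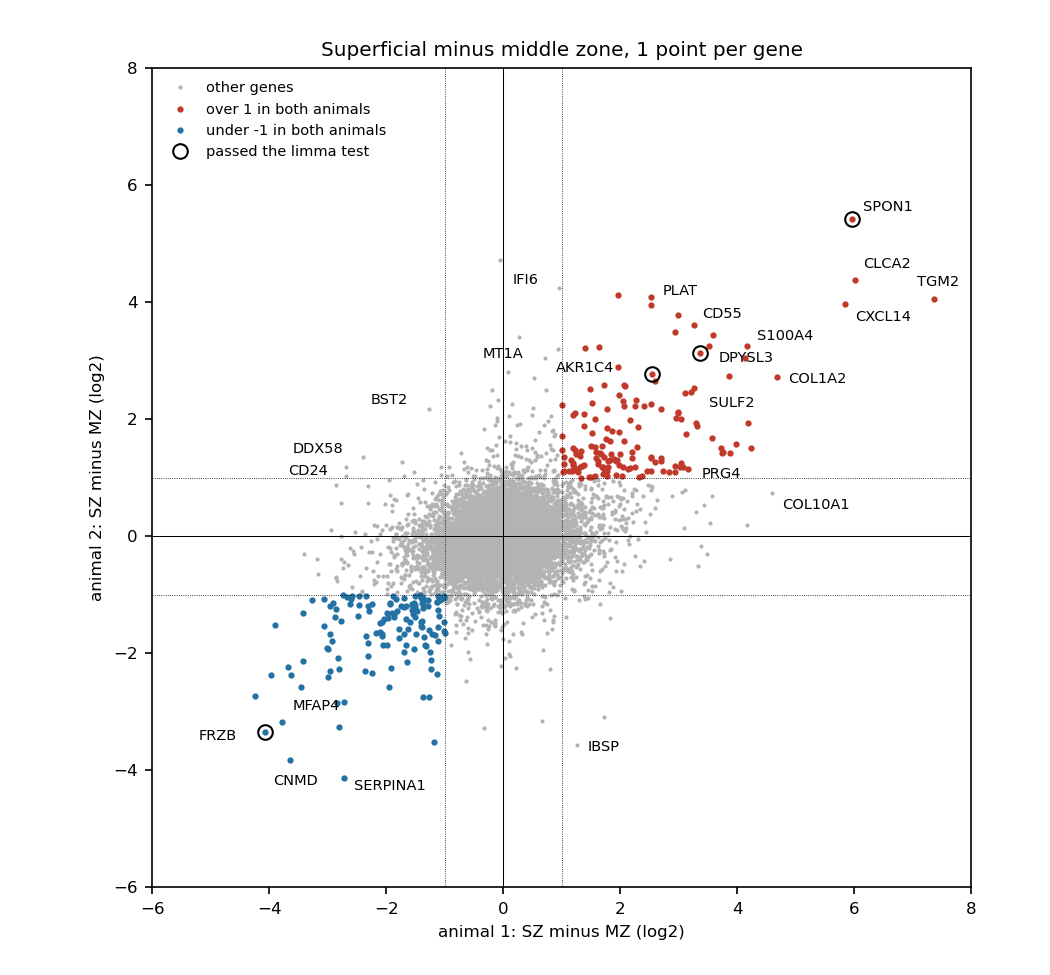
SZ minus MZ difference in log2 units of each of 11626 genes in animal 1 (horizontal axis) and animal 2 (vertical axis); red points are over 1 and blue points under -1 in both animals, black circles mark the 4 genes that passed the limma test, and dotted lines stand at 1 and -1. The 146 red and 136 blue genes form 2 arms, SPON1 lies far out at 5.97 and 5.42, and IBSP lies at the lower right, where the animals differ in sign.

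By the test, 10 of 24016 probesets were called, 0.0416%, with 6 higher (0.025%) and 4 lower (0.0167%) in SZ. An unadjusted p under 0.05 was reached by 2123 probesets. By the count in both animals, 519 probesets stood past log2 1 in the same direction, 2.16%, with 286 higher (1.19%) and 233 lower (0.97%). Among genes, 4 of 11626 were called (0.0344%), 3 as higher (0.0258%) and 1 as lower (0.0086%), and 1113 had an unadjusted p under 0.05 (9.57%). In both animals, 282 genes stood past log2 1 the same way (2.43%), with 146 higher (1.26%) and 136 lower (1.17%). The share of such probesets was larger among brighter ones, with 0.0666% of the 6004 dimmest and 3.73% of the 6004 brightest. In the deposited dCHIP matrix, another summary of the same arrays, 97 of the 146 higher genes and 96 of the 136 lower genes were also past log2 1 in both animals, which is 66.4% and 70.6% of them. Of the 62 genes of the lists described below that stood so, 49 did in the dCHIP matrix too. COL1A2, CD44, IGFBP6, OAS2, GPX1, GCLC, SDC1, GPC1, CADM1, MYLK and PLOD2 were among the 13 that did not. Each list count below stands beside 2.43% of all genes past log2 1 in both animals and 9.57% at an unadjusted p under 0.05.

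With any 1 of the SZ or MZ arrays left out, the 10 called probesets kept their direction, and their differences were 88.7% to 111% of those with all arrays. The 10 were called on these same arrays, which favours differences alike in both animals. Their stability thus follows in part from the call and is no separate support. The fit with 1 array left out has 1 residual degree of freedom and assumes that the lone array of a zone varies like the others. It called 0 probesets by limma, with 989 to 2959 at an unadjusted p under 0.05. The number of called probesets was 135 in the dCHIP matrix, 3 with no block for animal and 180 when the dimmer probesets were left out.

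SPON1 gave the largest called difference. It encodes F-spondin, a secreted protein of the extracellular matrix. SPON1 read 8.87 and 8.86 in SZ against 2.90 and 3.44 in MZ, for animals 1 and 2. The SZ arrays stood more than 5 log2 units above the MZ arrays, which lay near the lower quartile, and the groups did not overlap. The difference was 5.69 (SE 0.248, limma adjusted p = 0.00825), and the gene was called in each of the 6 alternative settings that keep all 4 arrays. A second SPON1 probeset, dimmer, read 5.97 and 6.22 in SZ and 2.72 and 2.88 in MZ and was called as well (limma adjusted p = 0.035). In DZ the brighter probeset read 4.28 and 4.66.

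DPYSL3, a member of the collapsin response mediator family that binds the cytoskeleton, was the second called gene higher in SZ. It read 6.32 and 6.99 in SZ against 2.95 and 3.87 in MZ. The difference was near 3 log2 units in both animals and averaged 3.25 (SE 0.233, limma adjusted p = 0.0339). DZ read 6.14 and 6.70, close to the SZ values. AKR1C4, an aldo-keto reductase that acts on steroids and other carbonyls, read 5.85 and 6.04 in SZ against 3.31 and 3.27 in MZ. Its difference of 2.65 was called (limma adjusted p = 0.0484) but was called in only 2 of 5 alternative settings, and near-identical members of its family may share the probeset.

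UST, an enzyme that adds sulphate to the uronic acids of chondroitin and dermatan sulphate, was called by a dimmer probeset only. That probeset read 5.53 and 5.60 in SZ against 2.78 and 2.85 in MZ (difference 2.74, limma adjusted p = 0.0414). In the dCHIP matrix it differed by only 0.83 in animal 1 and 0.39 in animal 2 and was not called (limma adjusted p = 0.521), and of 5 alternative settings 3 called it. The brighter UST probeset read 6.40 and 5.79 in SZ against 4.63 and 3.61 in MZ, and it missed the test (limma adjusted p = 0.104). Both probesets stood higher in SZ in both animals.

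FRZB was the called gene lower in SZ. It encodes secreted frizzled-related protein 3, which binds WNT ligands outside the cell. FRZB read 6.83 and 6.39 in SZ against 10.90 and 9.74 in MZ. Both SZ arrays lay below both MZ arrays by a wide gap. The difference was -3.71 (SE 0.265, limma adjusted p = 0.0339), and DZ read 10.98 and 10.28, near the MZ values. The other 4 called probesets carry no symbol in the files. The highest of them in SZ read 9.90 and 9.07 in SZ against 5.58 and 4.18 in MZ, and the most strongly lower read 4.90 and 3.87 in SZ against 9.86 and 8.54 in MZ.

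Genes of the joint surface had the highest median of the 33 lists, 1.59 against -0.02 over all genes. Under at least 1 alternative setting the median turned its sign in 22 of the 33 lists, but not in this one. The lists and their members were chosen with earlier results of these data known, so rank and stable sign are descriptions only. Of the 11 measured members of the surface matrix and lubrication list, 1 was called and 3 stood past log2 1 in both animals, all as higher. Besides SPON1 these were PRG4 and THBS4. PRG4 read 13.37 and 13.53 in SZ against 9.63 and 12.11 in MZ. The SZ arrays were alike and the MZ arrays were not, so that the difference was 3.74 in animal 1 and 1.42 in animal 2. It did not pass (limma adjusted p = 0.245), and the SZ values lie near the top of the scale, which can compress it. The dimmest of its 3 probesets, farther from the top, differed by 5.88 in animal 1 and 3.41 in animal 2, with a mean of 4.65 (limma adjusted p = 0.0895).

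THBS4, a pentameric thrombospondin of tendon and cartilage matrix, read 11.46 and 12.20 in SZ against 9.42 and 11.01 in MZ. CLU, the secreted chaperone clusterin, read 12.57 and 12.57 in SZ against 10.03 and 11.70 in MZ and was past log2 1 in animal 1 only. PRG4, THBS4 and CLU shared 1 layout. Both SZ arrays exceeded both MZ arrays, and the MZ array of animal 2 stood 1.59 to 2.48 log2 units above that of animal 1. VIT, a matrix protein named vitrin, read 9.81 and 9.80 in SZ against 8.89 and 9.42 in MZ. THBS1, thrombospondin 1, lay outside this order at 10.18 and 11.86 in SZ against 11.38 and 11.47 in MZ.

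Growth factors and the IGF axis held the most genes past log2 1 of any list. Of 35 measured members, 10 stood past log2 1 in both animals as higher (1.26% of all genes) and 2 as lower (1.17%). Limma called 0, and 14 had an unadjusted p under 0.05 (9.57% of all genes). The list median of 0.08 was near that of all genes, so the higher members were a minority of the list. IGFBP5, a binding protein for insulin-like growth factors, read 8.88 and 6.86 in SZ against 5.02 and 4.12 in MZ. IGFBP4 and IGFBP6, of the same family, differed by 2.07 and 2.01. PDGFC, a ligand of the platelet-derived growth factor receptors, read 6.35 and 5.58 in SZ against 3.24 and 3.13 in MZ.

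VEGFC, the ligand known for lymphatic vessel growth, read 5.90 and 5.29 in SZ against 2.33 and 3.62 in MZ. PTN, the heparin-binding growth factor pleiotrophin, read 7.71 and 8.27 in SZ against 5.75 and 5.38 in MZ. CCN5 and CCN3, matricellular proteins, differed by 2.44 and 1.61, and MET, the receptor of hepatocyte growth factor, by 1.56. For PDGFC, VEGFC and PTN the SZ arrays did not overlap the MZ arrays, yet their adjusted p-values by limma were 0.12, 0.124 and 0.094. In the lower direction stood ANGPTL7, a secreted angiopoietin-like protein, at 6.37 and 6.24 in SZ against 9.79 and 8.37 in MZ.

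Secreted antagonists of BMP and WNT signals lay on both sides. BMPER, which binds BMPs, read 9.69 and 9.84 in SZ against 6.54 and 8.69 in MZ (difference 2.15, limma adjusted p = 0.21). SFRP1, a WNT antagonist of the same family as FRZB, read 9.84 and 8.16 in SZ against 7.67 and 6.99 in MZ. Its difference of 1.67 thus ran opposite to that of FRZB, although it was not called (limma adjusted p = 0.319). Of the 26 measured WNT genes FRZB alone was called. Past log2 1 in both animals stood SFRP1 as higher and FRZB as lower, and the list median was -0.05.

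TGFBR1 and SMAD3, a receptor and an intracellular carrier of TGF-beta signals, read lower in SZ. TGFBR1, the type I receptor, read 6.15 and 7.13 in SZ against 7.81 and 8.32 in MZ. SMAD3, which carries the signal to the nucleus, read 8.55 and 8.25 in SZ against 9.66 and 10.03 in MZ. A second, dimmer SMAD3 probeset differed by only -0.41 in animal 1 and -0.71 in animal 2. The SZ arrays lay below both MZ arrays for both genes, with limma adjusted p-values of 0.124 and 0.181. Of 30 measured genes of the BMP and TGF-beta list, 1 stood past log2 1 as higher (BMPER) and 2 as lower (TGFBR1 and SMAD3). Limma called 0 of them, and 5 had an unadjusted p under 0.05. The list median was -0.13. Over all genes 1.26% stood past log2 1 as higher and 1.17% as lower, and 9.57% had an unadjusted p under 0.05.

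**Figure D2:**
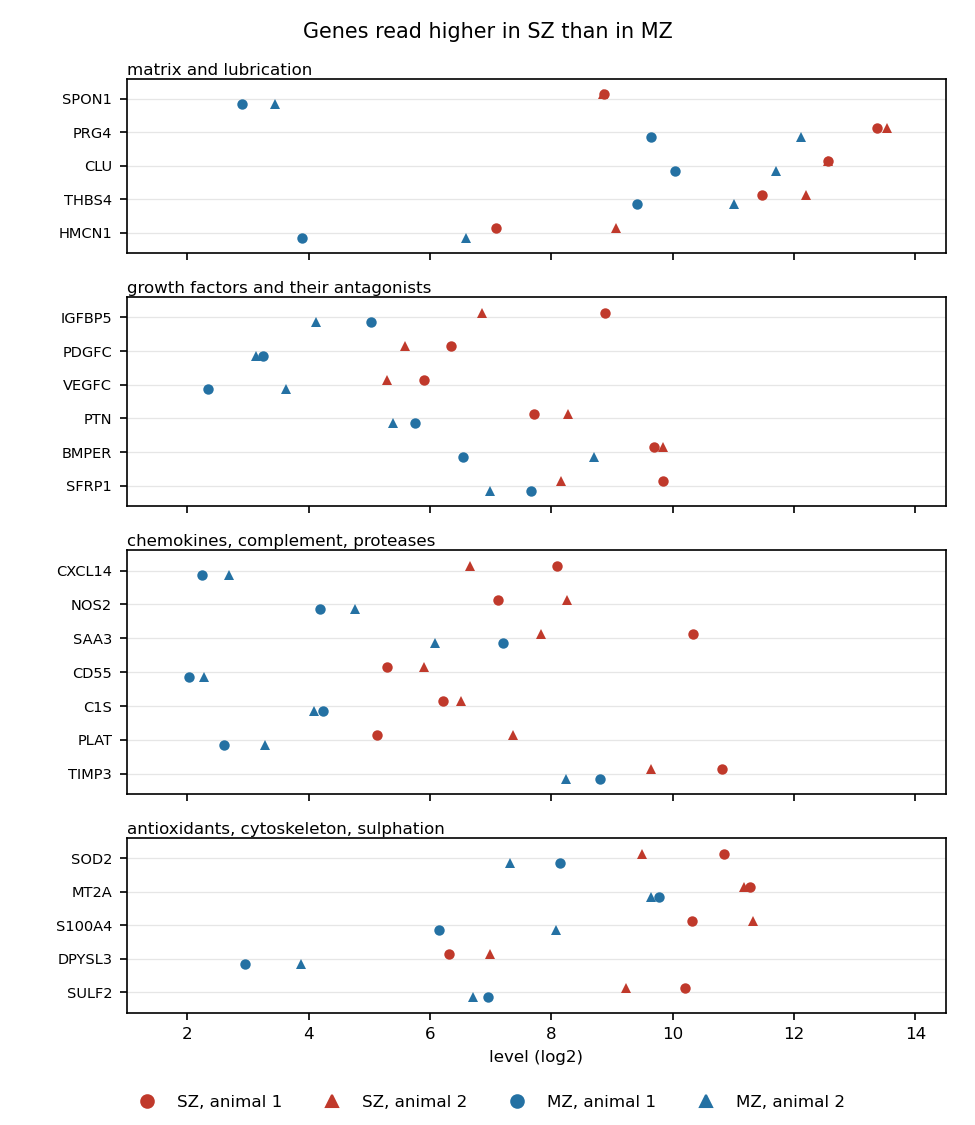
Log2 level on each SZ array (red) and MZ array (blue) of animal 1 (circles) and animal 2 (triangles) for genes grouped by role, from the lists described in the text. Red symbols stand right of the blue symbols of the same animal in every row, and the MZ symbols of SPON1, CXCL14, CD55 and PLAT lie near the lower quartile of the arrays.

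Of 29 measured inflammatory mediators, 3 stood past log2 1 in both animals as higher (1.26% of all genes) and 1 as lower (1.17%). The other 25 did neither. Limma called 0, with 7 at an unadjusted p under 0.05 (9.57% of all genes), and the list median was 0.28. CXCL14, a chemokine made by epithelia and fibroblasts, read 8.08 and 6.65 in SZ against 2.24 and 2.69 in MZ, with MZ near the lower quartile. Its difference of 4.90 (SE 0.44) missed the threshold narrowly (limma adjusted p = 0.0542). NOS2, the inducible nitric oxide synthase, read 7.12 and 8.26 in SZ against 4.18 and 4.77 in MZ. SAA3, a serum amyloid A protein, read 10.33 and 7.83 in SZ against 7.21 and 6.08 in MZ. PTGS2, the inducible cyclooxygenase, ran the other way at 6.28 and 7.90 in SZ against 9.01 and 8.90 in MZ.

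Complement genes past log2 1 in both animals numbered 3 of 18, all higher (1.26% of all genes), with a list median of 0.18. Limma called 0 of the 18, with 3 at an unadjusted p under 0.05 (9.57% of all genes). CD55, a membrane protein that limits complement activation and is also used as a marker of the synovial lining, read 5.29 and 5.89 in SZ against 2.03 and 2.28 in MZ (difference 3.44, limma adjusted p = 0.0627). Both MZ arrays were under their lower quartile for CD55. C1S, a protease of the first complement component, read 6.21 and 6.51 in SZ against 4.24 and 4.09 in MZ. CFI, the factor I protease that degrades complement fragments, read 5.04 and 3.16 in SZ against 2.78 and 1.98 in MZ.

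Of 35 proteases and inhibitors, 3 stood past log2 1 in both animals as higher (1.26% of all genes) and 2 as lower (1.17%). The list median was 0.17. Limma called 0, and 9 had an unadjusted p under 0.05 (9.57% of all genes). PLAT, the tissue plasminogen activator, read 5.13 and 7.37 in SZ against 2.61 and 3.28 in MZ. TIMP3, a matrix-bound inhibitor of metalloproteinases, read 10.81 and 9.65 in SZ against 8.81 and 8.23 in MZ, and TIMP4 of the same family differed by 1.61. SERPINA1, which encodes alpha-1 antitrypsin, read 8.19 and 7.37 in SZ against 10.92 and 11.50 in MZ. Its SZ arrays lay below MZ by 2.73 in animal 1 and 4.12 in animal 2 (limma adjusted p = 0.0568), and DZ read 12.93 and 13.12. ADAMTS6, a secreted metalloproteinase, read 5.25 and 5.46 in SZ against 6.51 and 7.43 in MZ.

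Metallothioneins and antioxidant enzymes had a list median of 0.53 over 28 measured genes, with 4 past log2 1 in both animals as higher and 0 as lower. Limma called 0, and 10 had an unadjusted p under 0.05 (9.57% of all genes). SOD2, the mitochondrial superoxide dismutase, read 10.84 and 9.49 in SZ against 8.15 and 7.31 in MZ (difference 2.44, limma adjusted p = 0.0627). MT2A, a metal-binding metallothionein, read 11.27 and 11.18 in SZ against 9.77 and 9.64 in MZ. MT2A differed by nearly the same amount in both animals, 1.50 and 1.54. MT1A, a close relative whose probes may share targets with other metallothioneins, differed by 0.71 in animal 1 and 3.05 in animal 2. GPX1 and GCLC, enzymes of glutathione use and synthesis, differed by 1.82 and 1.54, and SOD3, the extracellular superoxide dismutase, by 1.94 in animal 1 and 0.70 in animal 2.

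Genes that set the sulphation of glycosaminoglycans split by direction. SULF2, which removes 6-O-sulphate from heparan sulphate outside the cell, read 10.21 and 9.24 in SZ against 6.95 and 6.70 in MZ. CHST11, which adds 4-O-sulphate to chondroitin, read 6.31 and 4.90 in SZ against 9.31 and 7.30 in MZ. Both missed the threshold narrowly, with differences of 2.90 and -2.70 and the same limma adjusted p = 0.0542, and each was called in 3 of the 6 alternative settings. A second, dimmer CHST11 probeset differed by -0.46 only. Of the 17 measured genes of this list, SULF2 and UST stood past log2 1 in both animals as higher and CHST11 as lower. The median was -0.09, limma called 0 of these probesets, and 5 had an unadjusted p under 0.05.

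In the cytoskeletal list S100A4 and TAGLN2 stood past log2 1 in both animals as higher and MYLK as lower, of 34 measured, with a median of 0.16. Limma called 0, and 8 had an unadjusted p under 0.05. S100A4, a calcium-binding protein of motile cells, read 10.31 and 11.33 in SZ against 6.15 and 8.08 in MZ. TAGLN2, an actin-binding protein, read 8.30 and 6.22 in SZ against 4.54 and 4.78 in MZ. MYLK, the myosin light chain kinase, read 3.84 and 4.76 in SZ against 6.51 and 5.79 in MZ. At the cell surface SDC1, the heparan sulphate proteoglycan syndecan 1, read 8.38 and 8.13 in SZ against 5.44 and 7.04 in MZ. GPC1, which carries heparan sulphate on a lipid anchor, ran the other way at 5.78 and 4.90 in SZ against 7.14 and 6.61 in MZ. In the list of 35 adhesion genes SDC1 and CD44 stood past log2 1 as higher and GPC1 and CADM1 as lower, and the median was -0.06. Limma called 0 of them, and 7 had an unadjusted p under 0.05.

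The hyaluronan receptor CD44 read 4.35 and 3.87 in SZ against 2.52 and 2.24 in MZ, with both MZ arrays under their lower quartile and a limma adjusted p of 0.0759. It was the only one of 15 measured genes of the aggrecan, hyaluronan and matrilin list past log2 1 in both animals. That list had a median of 0.15, with 3 genes at an unadjusted p under 0.05 and 0 called by limma. HMCN1, the giant matrix protein hemicentin 1, read 7.09 and 9.06 in SZ against 3.89 and 6.60 in MZ. In HMCN1 the difference was 3.20 in animal 1 and 2.46 in animal 2, although animal 2 read higher in both zones, so the MZ value of animal 2 came close to the SZ value of animal 1. Of the 21 measured genes of elastic fibres, fibulins and tenascins, HMCN1 stood past log2 1 as higher and MFAP4 as lower, with a median of -0.09. Limma called 0 of them, and 5 had an unadjusted p under 0.05.

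Of the 11 measured genes of chondrocyte identity, 3 stood past log2 1 in both animals as lower and 0 as higher. The list median was -0.70, limma called 0, and 4 had an unadjusted p under 0.05. CNMD, which encodes chondromodulin, an inhibitor of vessel growth, read 7.88 and 5.12 in SZ against 11.52 and 8.95 in MZ. Animal 1 read higher than animal 2 in both zones, and the within-animal differences of -3.64 and -3.83 were close to each other. The fit gave -3.74 (SE 0.523, limma adjusted p = 0.0843), and CNMD was called in 4 of the 6 alternative settings. FOXA2, a transcription factor of hypertrophic chondrocytes in mouse, read 4.19 and 3.94 in SZ against 7.46 and 5.04 in MZ. FOXA3, its relative with a like role, read 6.95 and 7.65 in SZ against 9.11 and 9.29 in MZ.

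MEF2C, a transcription factor that drives hypertrophy in mouse, read 6.25 and 6.02 in SZ against 8.30 and 7.87 in MZ and 10.01 and 10.01 in DZ. Its difference of -1.95 was alike in both animals but did not pass (limma adjusted p = 0.0627). PTHLH, the parathyroid hormone-like ligand that restrains hypertrophy, differed by -0.70, and its receptor PTH1R by -1.10. PTH1R read 6.14 and 4.63 in SZ against 6.83 and 6.14 in MZ, so that its zones touch. SOX6, a partner of SOX9 in cartilage, differed by 0.56 and ERG by 0.73. None of these last 4 genes stood past log2 1 in both animals. Of 14 measured genes of hypertrophy and mineralisation, MEF2C stood so as lower and SLC20A1, a phosphate transporter, as higher, with a median of 0.09. Limma called 0 of the 14, and 4 had an unadjusted p under 0.05.

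MFAP4, a protein of elastic microfibrils, gave a difference nearly as large as FRZB. It read 4.49 and 5.08 in SZ against 8.27 and 8.25 in MZ. Its difference of -3.48 (SE 0.391) missed the threshold (limma adjusted p = 0.0568) and was called in 4 of the 6 alternative settings. CHAD, chondroadherin, a small leucine-rich protein that binds type II collagen and integrins, read 10.84 and 10.41 in SZ against 12.01 and 12.09 in MZ. CHAD was the one member of 12 small leucine-rich proteoglycans past log2 1 in both animals. The collagen lysyl hydroxylases PLOD1 and PLOD2 differed by -1.08 and -1.03, with SZ below MZ by 1.01 to 1.08 in each animal, just inside the limit of 1. GADD45B, a stress-response gene known in chondrocytes, read 9.03 and 9.36 in SZ against 10.70 and 10.77 in MZ.

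**Figure D3:**
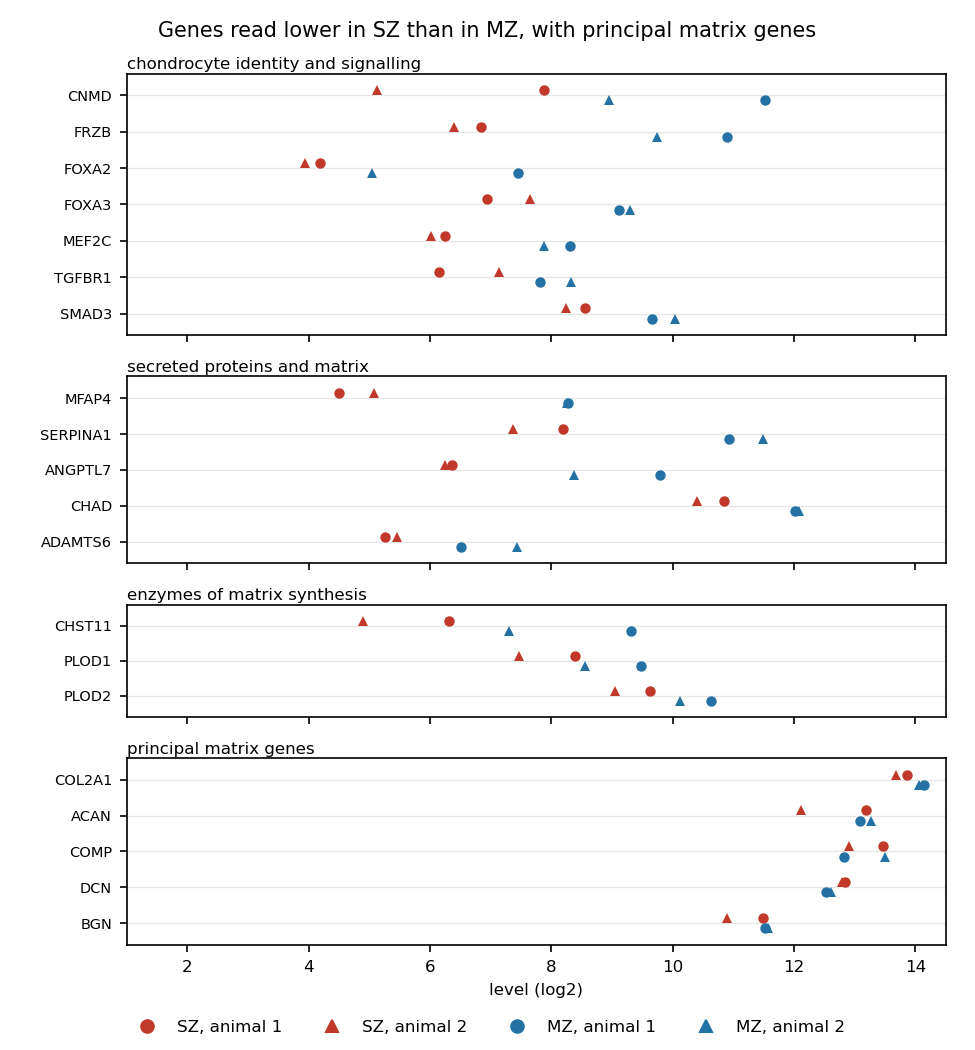
Log2 level on each SZ array (red) and MZ array (blue) of animal 1 (circles) and animal 2 (triangles) for genes that read lower in SZ and, in the lowest panel, for principal matrix genes. In the upper panels every red symbol stands left of the blue symbol of its animal, whereas in the lowest panel both colours lie between 10.89 and 14.13 and overlap for ACAN and COMP.

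Of the principal matrix genes of cartilage none was called, and the size of the difference depended on the animal and the probeset. COL2A1 read 13.86 and 13.69 in SZ against 14.13 and 14.06 in MZ, and SZ of animal 1 and both MZ arrays had no higher value on the array. Its 5 dimmer probesets lay away from the top, with differences of -0.14 to 0.76 in animal 1 and -1.48 to -1.08 in animal 2. ACAN, the aggrecan core protein, read 13.18 and 12.12 in SZ against 13.09 and 13.27 in MZ, with SZ of animal 2 the lowest. It differed by 0.09 in animal 1 and -1.15 in animal 2, and a dimmer ACAN probeset by 0.24 and -1.52. COMP, a pentameric matrix glycoprotein, read 13.46 and 12.91 in SZ against 12.83 and 13.50 in MZ, with a mean difference of 0.02 and opposite signs in the animals. For COMP the sign of the mean turned in the dCHIP matrix and with quantile normalisation, at -0.08 and -0.01. Among 6 measured collagen genes of types II, IX, XI and XXVII, 0 stood past log2 1 in both animals, 1 had an unadjusted p under 0.05, and the median was -0.42.

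Small leucine-rich proteoglycans had a median of -0.10, with 4 of 12 at an unadjusted p under 0.05 and 0 called by limma. DCN, decorin, read 12.84 and 12.79 in SZ against 12.53 and 12.61 in MZ, and BGN, biglycan, 11.49 and 10.89 in SZ against 11.52 and 11.57 in MZ. OGN, osteoglycin, read 9.51 and 10.88 in SZ against 8.83 and 10.23 in MZ and 2.04 and 4.05 in DZ. The SZ minus MZ difference of OGN was thus 0.68 in animal 1 and 0.65 in animal 2, and it did not pass (limma adjusted p = 0.55). Animal 2 read higher than animal 1 in both zones.

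The lists of ribosomal proteins, of hypoxia and glycolysis and of proliferation had small medians. Over 35 ribosomal protein genes the differences ran between -0.29 and 0.22 with a median of 0.02, and 0 stood past log2 1. Over 32 genes of hypoxia and glycolysis the median was -0.06, and over 32 genes of proliferation it was 0.09. Neither held a member past log2 1 in both animals. Of the proliferation genes 6 were over log2 1 in animal 1 and 0 in animal 2, beside 5.71% and 2.55% of all genes. Their median was 0.21 in animal 1 and -0.15 in animal 2, an unevenness that was not tested. Limma called 0 members of these 3 lists, and unadjusted p-values under 0.05 numbered 0, 2 and 2. In the secretory list of 30 genes of the endoplasmic reticulum, PLOD1 and PLOD2 were the members past log2 1, and the median was -0.15. Immediate-early genes had a median of 0.04 over 31 measured, with FOSL1 and FOSB past log2 1 as higher and GADD45B as lower. FOSB read 5.76 and 7.84 in SZ against 4.19 and 6.81 in MZ, so its zones overlapped. A second, dimmer FOSB probeset differed by 0.17 only. Limma called 0 members of the secretory and immediate-early lists. In each, 5 had an unadjusted p under 0.05 (9.57% of all genes).

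**Figure D4:**
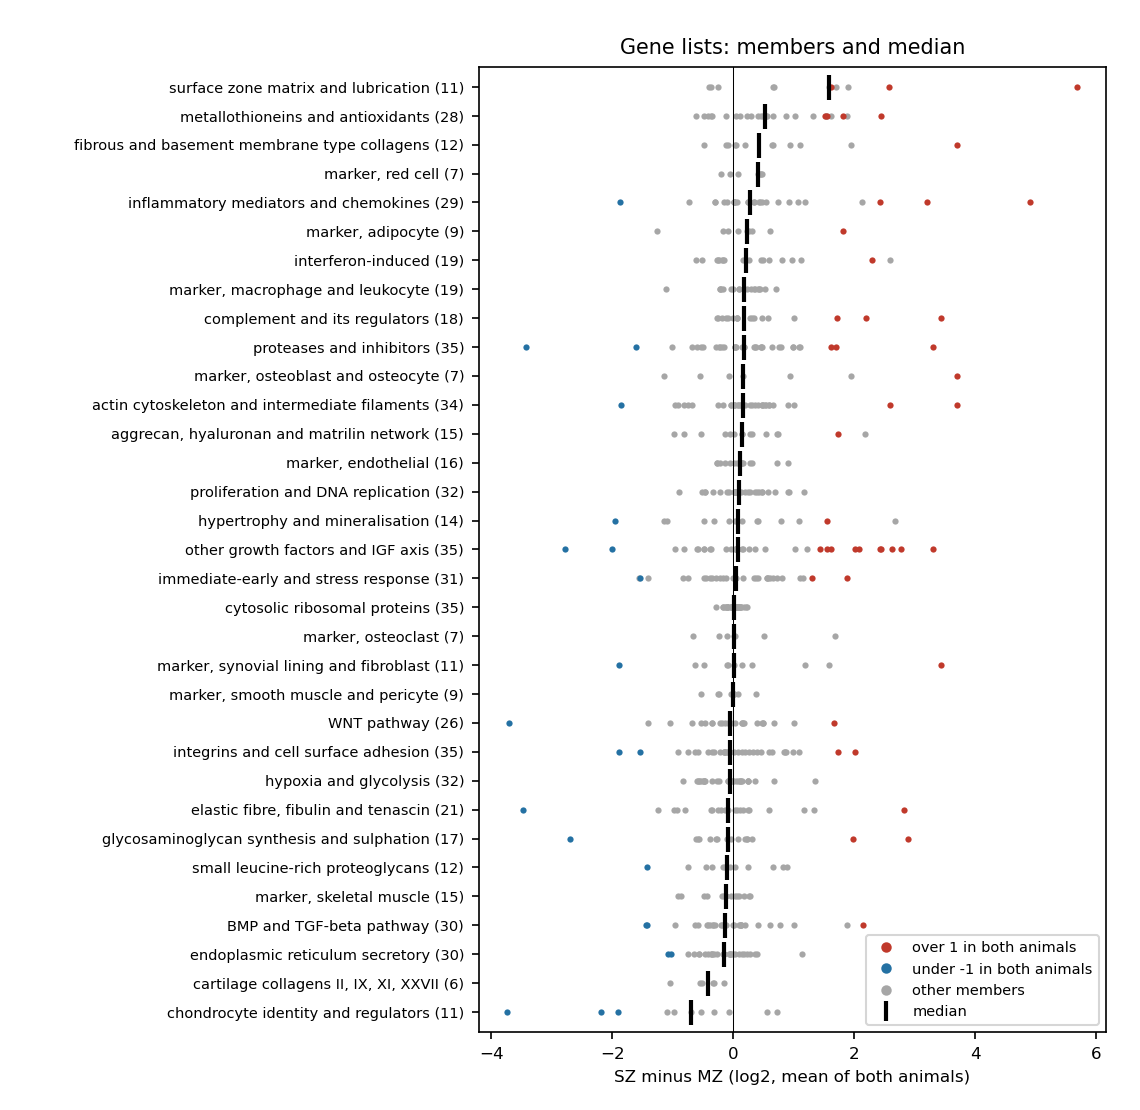
SZ minus MZ difference (log2, mean of both animals) of each measured member of 33 gene lists, 1 row per list with the number measured in brackets, ordered by the median (black bar); red members were over 1 and blue members under -1 in both animals. The surface matrix list has the highest median, 1.59, and the list of chondrocyte identity the lowest, -0.70, while the ribosomal proteins sit tightly around 0.02. The lists were chosen with earlier results of these data known.

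The 2 animals were uneven for several groups of genes, which is given as values and was not tested. Of the 12 measured fibrous and basement membrane collagens, 6 were over log2 1 in animal 1 and 1 in animal 2, and of the 14 genes of hypertrophy and mineralisation 5 and 1 were, beside 5.71% and 2.55% of all genes. Of these lists 6 genes each were higher in SZ in both animals, a count for which the share over all genes was not taken. COL1A1, the main chain of type I collagen, read 9.09 and 5.75 in SZ against 5.98 and 4.95 in MZ. COL10A1, the collagen of hypertrophic cartilage, read 8.12 and 3.99 in SZ against 3.52 and 3.25 in MZ. VCAN, the large proteoglycan versican, read 10.20 and 6.55 in SZ against 6.04 and 6.36 in MZ, and DPT, dermatopontin, 8.11 and 3.62 in SZ against 4.63 and 3.92 in MZ. In these 4 genes, picked after their values had been seen, SZ of animal 1 stands apart from the other arrays, and none was called. Whether COL1A1 was past log2 1 in both animals depended on the probeset. Dimmer COL1A1 probesets differed by 3.29 and 1.66, by 3.61 and 1.29, and, near the lower quartile, by 0.51 and 0.92, for animals 1 and 2. COL1A2, the second chain of type I collagen, read 7.64 and 5.19 in SZ against 2.95 and 2.46 in MZ, and was past log2 1 in both animals (difference 3.71, limma adjusted p = 0.171). In the dCHIP matrix this probeset differed by 1.67 and 0.37 and was not past log2 1 in animal 2. A second, dimmer COL1A2 probeset differed by 5.09 in animal 1 and 2.08 in animal 2, and by 4.53 and 2.57 in the dCHIP matrix. It was not called either (limma adjusted p = 0.389). By the probeset that represents each gene, COL1A2 was the one of the 12 collagens to be past log2 1 in both animals. The list median was 0.42, with 2 genes at an unadjusted p under 0.05 and 0 called by limma.

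Over the 7 measured osteoblast and osteocyte markers, which include COL1A1 and COL1A2, the mean log2 level was 5.96 and 4.68 in SZ and 4.52 and 4.70 in MZ, against 9.21 and 9.95 in DZ. SZ of animal 1 had the highest mean of the 4 arrays in this list, but not over the 7 osteoclast markers, at 4.67 and 4.84 in SZ and 4.45 and 4.71 in MZ. Of the osteoblast and osteocyte markers 1 of 7 stood past log2 1 in both animals, COL1A2. BGLAP, osteocalcin, read 6.54 and 4.50 in SZ against 4.84 and 4.31 in MZ, and IBSP, bone sialoprotein, 5.42 and 3.56 in SZ against 4.16 and 7.13 in MZ. Synovial markers had means of 6.28 and 5.80 in SZ and 5.78 and 5.66 in MZ over 11 genes, with CD55 past log2 1 as higher and CADM1 as lower. The part of these cells in the results was not tested.

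Of the 19 measured genes induced by interferon, 1 was over log2 1 in animal 1 and 7 in animal 2. Over all genes these shares were 5.71% and 2.55%. In SZ 9 of the 19 were higher in both animals, and in 7 both SZ arrays lay above both MZ arrays. For these counts of direction and overlap the share over all genes was not taken, so nothing particular to the list can be read from them. IFI6 read 3.20 and 6.40 in SZ against 2.26 and 2.16 in MZ, and MX1, an antiviral GTPase, 2.47 and 5.06 in SZ against 2.56 and 2.73 in MZ. OAS2, which makes the activator of an RNA-degrading enzyme, read 4.54 and 6.43 in SZ against 3.14 and 3.22 in MZ, and it was the one member past log2 1 in both animals. The median of the 19 differences was -0.03 in animal 1 and 0.37 in animal 2. Limma called 0 of the 19, and 4 had an unadjusted p under 0.05 (9.57% of all genes). For surface genes such as PRG4 and BMPER the unevenness lay in MZ instead, where animal 2 read 2.48 and 2.15 above animal 1.

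**Figure D5:**
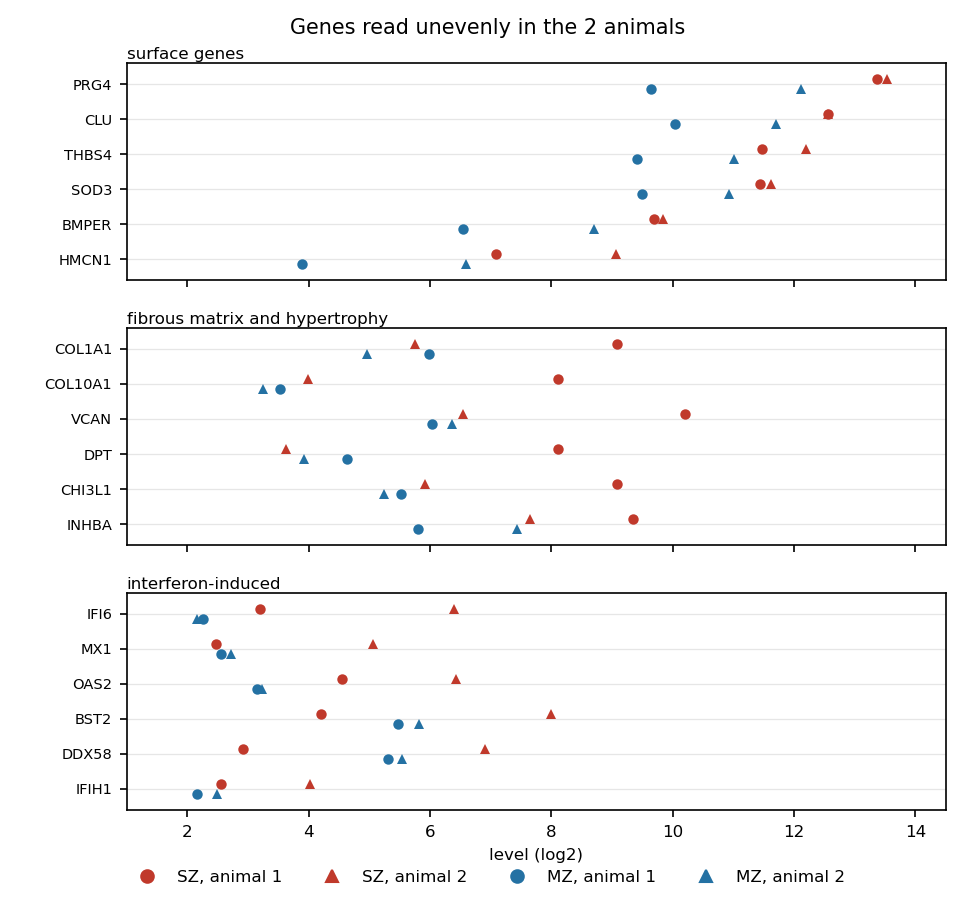
Log2 level on each SZ array (red) and MZ array (blue) of animal 1 (circles) and animal 2 (triangles) for genes in 3 groups. In the first group the MZ triangle stands right of the MZ circle, in the second the SZ circle stands alone on the right, and in the third the SZ triangle does.

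Other cell types gave few readings past log2 1 between SZ and MZ. Of 16 endothelial, 19 leukocyte, 7 osteoclast, 7 red cell, 15 skeletal muscle and 9 smooth muscle markers, 0 stood past log2 1 in both animals. Over all genes 2.43% did, and of the 6004 dimmest probesets 0.0666%. Their list medians ran between -0.12 for skeletal muscle and 0.41 for red cells. Limma called 0 marker genes of any of the 9 marker lists. At an unadjusted p under 0.05 stood 0 to 3 a list (9.57% of all genes). Mean levels were 3.44 and 3.40 in SZ against 3.30 and 3.29 in MZ for endothelium. For leukocytes they were 3.03 and 3.00 in SZ against 2.93 and 2.88 in MZ. These levels are low, with 7 of 16 endothelial and 9 of 19 leukocyte markers under the lower quartile on both MZ arrays. A count of 0 past log2 1 thus says little about these cells. Of 9 adipocyte markers FABP4, a fatty acid carrier, stood past log2 1, at 6.97 and 6.19 in SZ against 4.76 and 4.76 in MZ.

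Several genes outside the lists gave differences as large as those above and were picked after their values had been seen. TGM2, the transglutaminase that crosslinks proteins, read 9.52 and 6.71 in SZ against 2.16 and 2.65 in MZ, with MZ under the lower quartile. CLCA2, a regulator of chloride conductance, read 8.54 and 8.25 in SZ against 2.54 and 3.88 in MZ. Their differences were 5.71 and 5.19, and both missed the threshold with limma adjusted p-values of 0.0631 and 0.0627. FABP3, a fatty acid carrier, read 7.10 and 8.31 in SZ against 4.58 and 4.35 in MZ, and GAL, the neuropeptide galanin, 7.20 and 7.78 in SZ against 3.62 and 4.33 in MZ.

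In the lower direction VAV3, a guanine nucleotide exchange factor, read 2.11 and 2.81 in SZ against 6.35 and 5.53 in MZ, with SZ under the lower quartile. SLC8A3, a sodium and calcium exchanger, read 5.54 and 4.26 in SZ against 8.35 and 7.53 in MZ. ACVR1B, an activin type I receptor, read 3.48 and 4.92 in SZ against 7.16 and 7.16 in MZ. SMPD3, a sphingomyelinase needed for skeletal growth in mouse, read 7.30 and 6.24 in SZ against 10.02 and 9.08 in MZ. COLGALT2, which adds galactose to collagen, read 7.96 and 7.37 in SZ against 10.76 and 9.64 in MZ, and CLEC3A, a cartilage lectin, 8.95 and 9.76 in SZ against 11.31 and 11.47 in MZ. In all 6 genes both SZ arrays lay below both MZ arrays, and none was called.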

How the data were processed

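The deposited value table holds log2 expression per probeset. Normalisation was by RMA per the submitters' processing notes, and its version, background method and genome build are not given in the sources used here. A deposited dCHIP matrix, also log2, served as an alternative and gave the gene symbols. Each table holds 24128 probesets; 112 controls were left out and 24016 tested. Symbols stood for 17139 probesets, with 961 updated through RefSeq synonyms (ARS-UCD2.0), and 10320 of 11626 symbols were in that table.

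One limma 3.58.1 model in R 4.3.3 took all 6 arrays, with zone and an animal block, and 2 residual degrees of freedom plus 4.15 from the prior. The tests were two-sided and adjusted by Benjamini-Hochberg over 24016 probesets. The labels give arrays of one number the same animal; the difference between the animals correlated across zones with r of 0.216 to 0.346 over probesets. On simulated data, 2%, 54%, 92% and 100% of 50 probesets each, shifted by log2 1, 2, 3 and 4, were called. Among the probesets not shifted there were 7 false calls. The simulated noise was independent, normal and of the spread estimated by the fit, with no animal effect. The model's assumptions thus held by construction. For the real data neither the error rate nor the share of true differences called was measured. There TGM2, CLCA2 and CXCL14 differed by 5.71, 5.19 and 4.90 and were not called, whereas SPON1, at 5.69, was. With 2 animals, no rank or permutation test could reach significance, and the number of arrays limits the precision.

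The genes named were up to 15 called genes in each direction, every called list member, up to 4 members a list past log2 1 in both animals, and 21 fixed genes. Other members of lists, probesets without a symbol and genes said to be picked later were added after their values were seen. Some genes that met these rules are not reported here. The 33 lists, including 9 marker lists for other cell types, and the members were chosen with earlier results of these data known, and no list was tested as a set. Alternatives were the dCHIP matrix, no animal block, the 4 arrays alone, the brighter probesets only, quantile normalisation, a trended robust prior, other probesets of a gene, and leaving out each array.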

Additional observations from a re-analysis of the deposited data

How the results depend on the processing

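The number of called probesets was 10, and 8 with quantile normalisation. It was 135 in the dCHIP matrix, 31 with the 4 SZ and MZ arrays alone and the block, 180 without dim probesets, where 12008 were tested, and 100 with a trended and robust prior. With no replicate block 3 were called, all 3 among the 10. Of the 10, the same settings shared 8, 8, 9, 7 and 10, in the order quantile, dCHIP, 4 arrays, without dim probesets and trend. Leaving out 1 array gave 0 to 31 calls, 0 for each SZ or MZ array and 31 for each DZ array. Apart from the fewer arrays or probesets, the cause of the changes in the number called was not tested. The count past log2 1 in both animals stayed between 408 and 531, and the likeness r between 0.337 and 0.428. Of 1025 alternative values of named genes, 887 kept direction and side of the threshold, 109 in 37 genes passed it anew, 23 in 4 genes lost it and 6 in 2 genes reversed. COMP reversed to -0.077 in dCHIP, -0.006 with quantile normalisation, -0.44 without SZ replicate 1 and -0.44 without MZ replicate 1, against 0.02. DCN reversed to -0.12 without SZ replicate 1 and -0.02 without MZ replicate 2, against 0.25. Over all single arrays left out, COMP ran between -0.44 and 0.48 and DCN between -0.12 and 0.61. Neither was called in any of these. Of 428 list medians 348 moved by less than the spread between replicates and 80 in 26 lists by more, and 43 in 22 lists had the opposite sign. The sign held in every setting for the surface list (0.58 to 1.83), chondrocyte identity (-0.97 to -0.33), metallothioneins and antioxidants (0.40 to 0.87) and inflammatory mediators (0.25 to 0.92). Values near the lower quartile carry no detection call, and those near the top of the scale can be compressed, so signal limits both ends. No red cell marker was left without dim probesets.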

Other observations

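Some genes stood past log2 1 in both animals but in opposite directions. Of the 11626 genes there were 19, with 10 higher in SZ in animal 1 and lower in animal 2 and 9 the other way. IBSP, bone sialoprotein, differed by 1.26 in animal 1 and -3.57 in animal 2. LTBP2, a latent TGF-beta binding protein of microfibrils, differed by 1.66 and -1.16. FURIN, a protease that activates precursors of secreted proteins, differed by 1.83 and -1.41, although in the dCHIP matrix its differences were 0.19 and -0.41.

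The 9 genes higher in SZ of animal 2 and lower in animal 1 were DDX58, BST2, PARP14, ATF3, CD24, TIFA, ALCAM, MAP3K14 and RASL12. DDX58, which senses viral RNA, read 2.92 and 6.90 in SZ against 5.31 and 5.54 in MZ. BST2, the antiviral membrane protein tetherin, differed by -1.27 in animal 1 and 2.18 in animal 2. PARP14 differed by -1.07 in animal 1 and 1.05 in animal 2. ATF3, a stress-induced transcription factor, read 2.71 and 5.92 in SZ against 5.40 and 4.90 in MZ. CD24, a cell surface glycoprotein, read 4.68 and 5.05 in SZ against 7.36 and 3.86 in MZ, so that its unevenness lay in MZ. These genes were picked after their values had been seen, and the difference between the animals was not tested, with 1 array per zone and animal.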
